A study of Saccharomyces cerevisiae with 12 samples.

Results

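Messenger RNA, selected from 600 ng of total RNA per library, was compared between 2 pooled sides of an S288c yeast strain set, each side made of 6 libraries from 2 genotypes. The mutant side held 3 libraries labelled RPD3 KO, which lack the gene for the histone deacetylase Rpd3, and 3 labelled SWI3 S237A, which carry alanine in place of a serine of Swi3, a subunit of a chromatin remodeller. The reference side held 3 libraries labelled wild type and 3 labelled RPD3 S418A, which carry alanine in place of a serine of Rpd3. The growth label of all 12 libraries was synthetic defined medium, and RNA was taken at an optical density of 0.4. The treatment text that all samples share also describes 20 mM caffeine for 4 h in part of the study, and no library used here carries a caffeine label. The labels do not say whether replicates of a strain were separate cultures or whether a strain was more than 1 clone, so the p-values measure the spread between these libraries only.

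A target (an annotated reading frame of the deposited files) was taken as separated when all 6 libraries of 1 side lay strictly above all 6 of the other in CPM, the count relative to the library total, scaled by TMM. Of 6327 targets with enough counts, 2437 (38.5%) were separated. There were 1124 (17.8%) with the mutant side higher and 1313 (20.8%) with the mutant side lower, while 3890 overlapped. Since the values themselves chose these genes, the difference between the sides is given as a description, with no test. Genotypes were pooled with earlier results of these libraries known.

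Rpd3 removes acetyl groups from histone tails and is the catalytic subunit of a large and a small complex, the former brought to promoters by DNA-binding proteins such as Ume6. Swi3 is a core subunit of SWI/SNF, a complex that moves and evicts nucleosomes at promoters. Yeast is known to balance a growth programme, which includes the genes for making ribosomes, against a stress programme, run mainly by the heat shock factor Hsf1 and by Msn2 and Msn4, the zinc finger factors of the general stress response. Msn2 and Msn4 bind the stress element (STRE), Hsf1 binds the heat shock element, and many ribosome assembly genes carry the PAC and RRPE elements, which the repressors Dot6 and Tod6 and the factor Stb3 recognise.

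The labels were checked on RPD3 itself, a histone deacetylase gene at chrXIV:18001-19302 on the minus strand of R64. It had 0 counts in all 3 RPD3 KO libraries. The SWI3 S237A libraries held 88.3, 92.3 and 91.0 CPM, and the reference side ran from 103 to 125 CPM, so all of the mutant side lay below it. With a floor of 3 counts per library, RPD3 was at least 829-fold lower in RPD3 KO than on the reference side. The sides overlapped for RPD3 when counts were left unscaled or taken as the deposited TPM. SWI3 overlapped, at 84.5 to 106 CPM on the mutant side and 69.8 to 88.8 CPM on the reference side. In bulk RNA, fewer cells in a given state and less RNA per cell cannot be told apart.

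Total estimated counts ran from 18.3 M to 27 M per library. Every pair of replicates differed beyond counting noise, with a chi-square per gene from 5.64 to 121. The largest values, 105 and 121, were those of wild type replicate 1 against replicates 9 and 17. In that library the median of the large subunit assembly genes stood at -0.08 log2 around the mean of the 12 libraries, against -1.48 to -0.92 in the other 5 reference libraries. Without it the separated targets numbered 1330 higher and 1471 lower. The alpha-cell markers MF(ALPHA)1, MF(ALPHA)2, STE3 and SAG1 lay at 48.8 CPM or more in all 12 libraries. Of the a-cell markers, MFA1 lay at 0.647 CPM or less and STE2 and BAR1 at 7.93 CPM or less.

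How far apart the sides lay was measured by the gap, the log2 ratio of the lowest library of the higher side to the highest library of the lower side, with 0.5 CPM added to both. The median gap was 0.23 among the targets with the mutant side higher and 0.24 among those with it lower. A gap of at least 1, meaning that the nearest libraries of the sides were 2-fold apart, was reached by 44 targets with the mutant side higher (0.695% of those tested) and by 143 with it lower (2.26%). A gap of at least 2 was reached by 4 and 63 targets, and a gap of at least 4 by 0 and 15. The widest separations were thus in the lower direction. At the other end, MET7, an enzyme of folate metabolism, was just inside the rule, with 85.0 CPM in its lowest mutant library and 85.0 CPM in its highest reference library (gap 0.001). DFG5, a cell wall enzyme, was just outside it, with 113 CPM in both of those libraries. Among the lower targets STV1, a subunit of the vacuolar proton pump, was just inside, and YPF1, a protease of the endoplasmic reticulum, was just outside.

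Scaling moved the balance of directions. With TMM, 46.1% of the separated targets were higher and 53.9% lower. The shares were 50.9% and 49.1% with RLE size factors (1227 and 1182 targets), 59.8% and 40.2% with total counts (1375 and 924), and 69.1% and 30.9% in the deposited TPM (1653 and 739). Unscaled counts gave 70.7% and 29.3% (1331 and 551). The median log2 difference of all targets was -0.05 with TMM, -0.01 with RLE and 0.05 with total counts, but 0.13 in TPM and 0.14 unscaled. Under TMM, RLE, total counts and TPM at once, 1121 targets were higher and 736 lower, and 0 targets separated in opposite directions under any of these scalings.

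**Figure D1:**
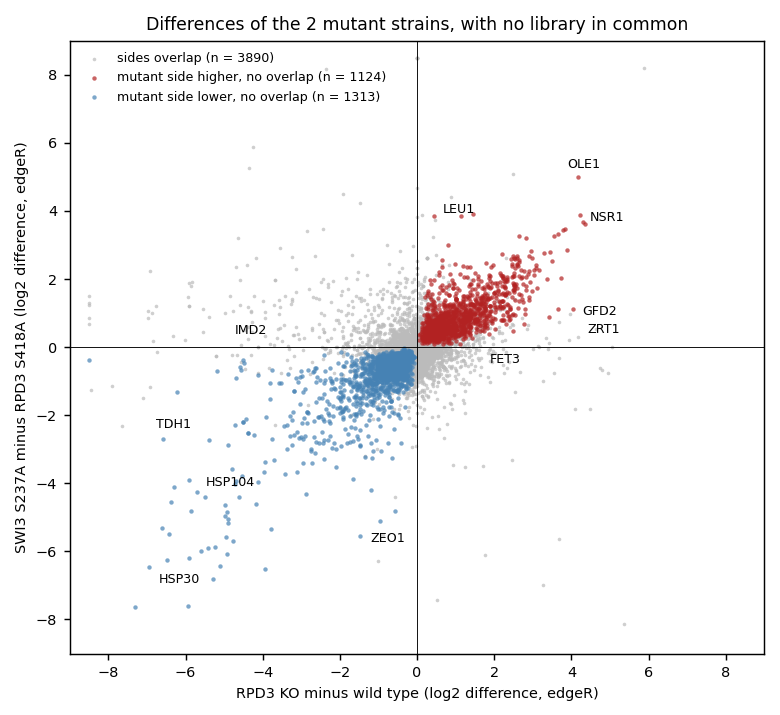
Each point is a target, placed by the log2 difference of RPD3 KO from wild type on the horizontal axis and of SWI3 S237A from RPD3 S418A on the vertical axis, 2 differences that share no library. Red and blue points are the 1124 and 1313 targets whose sides do not overlap, grey points the other 3890. Targets beyond the axis range, RPD3 among them, are drawn at its edge. OLE1 and NSR1 lie far up in both directions, HSP30 far down, and IMD2 and ZRT1 near 0 for SWI3 S237A.

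Among genes with a mean of at least 10 CPM and at most 5% of their 31-base words shared with other genes, the 10 higher ones with the widest gap were OLE1, IZH1, IZH4, NSR1, FAA4, YMC2, CAR1, YOR338W, MGA2 and TRF5. OLE1 encodes the only fatty acid desaturase of yeast, which makes oleic and palmitoleic acid. Its mutant-side libraries held 1757 CPM at the lowest, 1936 at the median and 2058 at the highest. The reference side held 51.9 CPM at the lowest, 59.7 at the median and 190 at the highest, the last in wild type replicate 1. The nearest libraries of the sides were thus 3.21 log2 apart, and the pooled difference was 4.57 ± 0.34 (log2 ± SE, 2 strains of 3 libraries a side). Every SE given here comes from 1 fit to all strains, which uses the spread between libraries within each strain. The SE of a difference between RPD3 KO and SWI3 S237A thus also holds the spread within the reference strains. The SE of a pooled difference leaves out how far the 2 strains of a side lie apart. RPD3 KO and SWI3 S237A did not pass the test of their difference (-0.18 ± 0.41, edgeR adjusted p = 0.721). Their libraries did not overlap, at 1757 to 1861 and 2011 to 2058 CPM, so a test that was not passed does not show like levels.

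Genes that handle fatty acids stood on both ends. MGA2, the membrane-bound factor that activates OLE1, held 156 to 191 CPM on the mutant side and 51.2 to 63.9 on the reference side. FAA4, a long-chain acyl-CoA synthetase, held 1047 to 1123 CPM against 102 to 268. Its paralog FAA1, which has the same activity, was lower, with 115 to 164 CPM against 558 to 735. FAA4 differed by 2.95 ± 0.18 log2 and FAA1 by -2.29 ± 0.06. FAA4 did not pass the test between RPD3 KO and SWI3 S237A (0.01 ± 0.24, edgeR adjusted p = 0.984). Of the 22 tested genes of fatty acid synthesis and desaturation, 8 (36.4%) were higher and 3 (13.6%) lower, beside 17.8% and 20.8% of all targets.

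IZH1 and IZH4 encode membrane proteins that take part in zinc balance. IZH1 held 131 CPM at the lowest, 175 at the median and 219 at the highest on the mutant side, against 12.5, 13.5 and 18.2 on the reference side, a pooled difference of 3.60 ± 0.08. IZH4 held 43.5, 59.8 and 83.7 CPM against 2.81, 4.16 and 8.45. Both were higher in RPD3 KO than in SWI3 S237A, by 0.56 ± 0.10 log2 for IZH1 (edgeR adjusted p = 0.000266) and 0.79 ± 0.21 for IZH4 (edgeR adjusted p = 0.0072). ZAP1, the zinc-sensing activator, and ZRT3, which releases zinc from the vacuole, were higher too, at 37.5 to 61.4 against 11.6 to 20.7 CPM and at 196 to 224 against 106 to 119 CPM. ZRT1, the high-affinity zinc importer, overlapped. Its SWI3 S237A libraries held 27.3 to 30.6 CPM, inside the reference range of 19.9 to 45.4, while RPD3 KO held 504 to 535. The zinc list had 7 (38.9%) higher and 1 (5.56%) lower of 18, beside 17.8% and 20.8% of all targets.

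Single genes of other pathways completed the set. CAR1, arginase, held 339 to 417 CPM against 70.1 to 100, and DUR3, the urea and polyamine importer, 21.8 to 24.4 against 8.28 to 11.6. The nitrogen-repressed list as a whole had 5 higher and 2 lower of 28, and its share of higher genes was 17.9% beside 17.8% of all targets. YMC2, a carrier of the inner mitochondrial membrane, held 107 to 122 CPM against 15.3 to 27.9. TRF5, a poly(A) polymerase of the nuclear RNA surveillance machinery, held 34.7 to 92.9 against 7.17 to 14.0. YOR338W, which has no standard gene name, held 16.0 to 49.5 against 2.27 to 5.59.

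**Figure D2:**
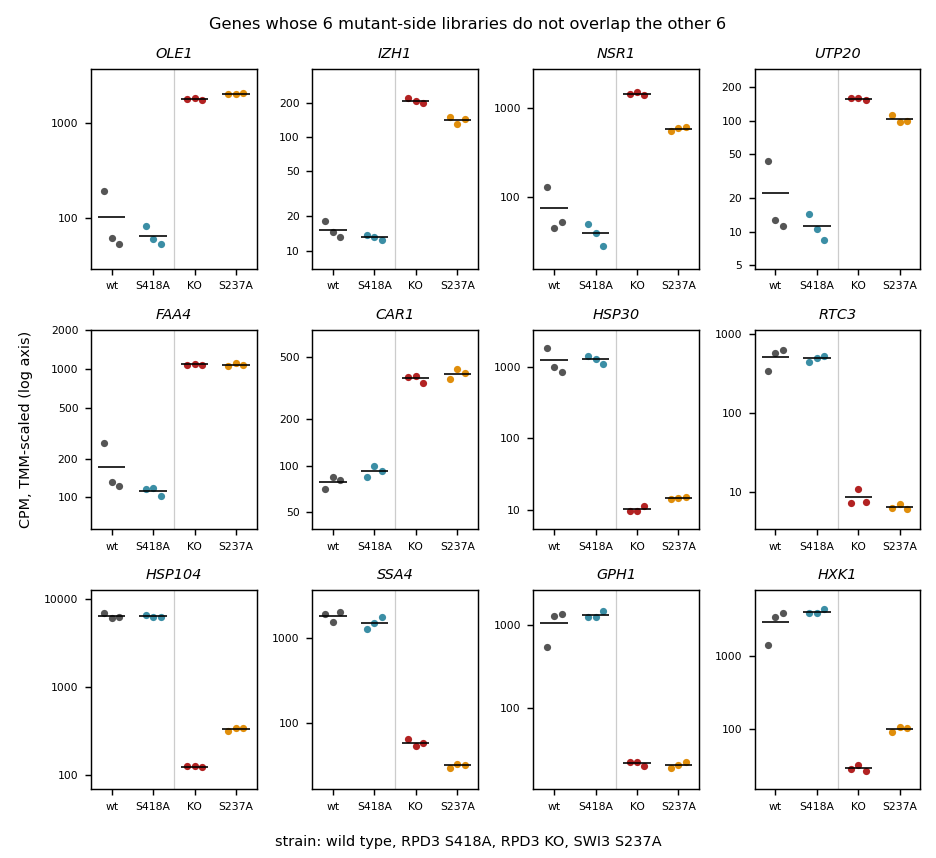
Each panel gives 1 gene, with the level of each library in TMM-scaled CPM on a log axis, 3 points a strain and the strain mean as a line; the grey line parts the reference side from the mutant side. In all 12 genes the sides are apart, as in OLE1 (1757 CPM or more against 190 or less) and HSP30 (15.2 CPM or less against 872 or more), and wild type replicate 1 is the reference point nearest to the mutant side in OLE1, NSR1, GPH1 and HXK1.

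Ribosome assembly held the largest block of higher genes. Of 65 tested genes of the small subunit processome, the particle that cuts and folds the first part of the ribosomal RNA precursor, 57 were higher and 0 lower. Of 81 genes of large subunit assembly, 74 were higher and 0 lower. The higher shares were 87.7% and 91.4%, beside 17.8% higher and 20.8% lower over all targets. The median pooled differences of these lists were 1.65 and 1.95 log2, against -0.06 over all targets. The share of counts showed it in each library. Large subunit assembly genes took 0.999% to 2.29% of all counts on the mutant side and 0.312% to 0.667% on the reference side. Wild type replicate 1 had the highest share of its side, and without it 62 and 80 genes were higher. Their levels differed within the mutant side as well, with 56 and 71 of the genes higher in RPD3 KO than in SWI3 S237A and 0 lower (edgeR). Over all targets 32.1% were higher and 32.3% lower in that test.

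The promoters of NSR1, DBP2, NOG1 and UTP20 are shown because they carry both elements of ribosome assembly genes. Each runs from 250 bases before to 50 bases after the start of the reading frame, in R64, 5′ to 3′ on the gene's strand. Capitals mark PAC (GATGAG or CTCATC) and RRPE (AAAAATTT or AAATTTTT).
NSR1 chrVII:807607-807906, minus strand: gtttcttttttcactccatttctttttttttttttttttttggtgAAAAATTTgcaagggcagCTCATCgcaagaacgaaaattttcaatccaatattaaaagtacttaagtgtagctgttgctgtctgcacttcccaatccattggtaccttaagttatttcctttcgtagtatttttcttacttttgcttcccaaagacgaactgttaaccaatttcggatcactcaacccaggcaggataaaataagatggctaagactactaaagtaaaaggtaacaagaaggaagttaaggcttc
DBP2 chrXIV:413389-413688, plus strand: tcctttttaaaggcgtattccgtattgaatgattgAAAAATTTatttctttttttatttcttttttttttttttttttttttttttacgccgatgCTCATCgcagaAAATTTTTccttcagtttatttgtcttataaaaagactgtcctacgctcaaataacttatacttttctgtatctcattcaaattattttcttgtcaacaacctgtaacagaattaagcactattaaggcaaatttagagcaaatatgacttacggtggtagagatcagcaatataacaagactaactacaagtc
NOG1 chrXVI:370728-371027, plus strand: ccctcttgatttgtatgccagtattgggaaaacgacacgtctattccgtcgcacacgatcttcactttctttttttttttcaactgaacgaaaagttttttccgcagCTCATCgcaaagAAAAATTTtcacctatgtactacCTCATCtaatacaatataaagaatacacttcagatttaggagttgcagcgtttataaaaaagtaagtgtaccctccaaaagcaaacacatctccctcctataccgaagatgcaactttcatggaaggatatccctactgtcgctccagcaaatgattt
UTP20 chrII:227386-227685, plus strand: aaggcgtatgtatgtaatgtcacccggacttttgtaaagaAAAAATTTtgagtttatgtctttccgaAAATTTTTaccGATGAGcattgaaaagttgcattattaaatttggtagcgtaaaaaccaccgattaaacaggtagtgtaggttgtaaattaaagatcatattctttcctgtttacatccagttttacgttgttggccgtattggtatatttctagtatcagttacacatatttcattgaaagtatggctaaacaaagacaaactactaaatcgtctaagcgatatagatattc

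In the 250 bases before the start, PAC was found in 35.8% of the promoters of higher genes, in 9.34% of those of lower genes and in 17% of all 6006 promoters read. RRPE was found in 27.9%, 8.62% and 13.4%. Both together were found in 17.4%, 0.949% and 4.98%. PAC was present in 89.2% of the small subunit processome promoters and 85.2% of the large subunit assembly promoters. Such a match is a description of the letters and does not show that a factor binds there.

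NSR1, a nucleolin-like protein that binds pre-ribosomal RNA, held 553 CPM at the lowest, 991 at the median and 1488 at the highest on the mutant side. On the reference side it held 29.0, 47.9 and 130 CPM. The pooled difference was 4.05 ± 0.27 log2, and RPD3 KO stood above SWI3 S237A by 1.29 ± 0.35 (edgeR adjusted p = 0.00811). For NSR1, as for every other gene, words shared with the 687 targets not matched to R64 were not searched. DBP2, a DEAD-box RNA helicase, held 664 to 1676 CPM against 49.5 to 275, and UTP20, a scaffold of the processome, 97.9 to 161 against 8.35 to 43.4. UTP20 did not pass the test between the mutants (0.61 ± 0.41, edgeR adjusted p = 0.219).

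Several of the largest differences belonged to RNA helicases and modifying enzymes. DHR2 and HCA4, helicases of the small subunit pathway, differed by 3.99 ± 0.37 and 3.47 ± 0.37 log2. RRP12, which takes part in export of both subunits, differed by 3.03 ± 0.31, and TRM11, a transfer RNA methyltransferase, by 3.12 ± 0.23. NOP1, the methyltransferase fibrillarin, held 663 to 867 CPM against 123 to 323, and its levels in RPD3 KO and SWI3 S237A differed by 0.15 ± 0.22 (edgeR adjusted p = 0.576). The large subunit factors ALB1, NOG1 and SPB1 were higher by 2.30 ± 0.08, 2.44 ± 0.17 and 2.12 ± 0.10 log2. All 3 stood higher in RPD3 KO than in SWI3 S237A, by 1.19 ± 0.10, 1.15 ± 0.23 and 1.40 ± 0.14 (edgeR adjusted p = 7.6e-07, 0.0011 and 3.35e-06).

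A few assembly genes did not separate. KRR1 overlapped through wild type replicate 1, at 141 CPM, while the other reference libraries held 48.8 to 73.6 and the mutant side 133 to 245. RRP7 overlapped in another way, with SWI3 S237A at 57.1 to 67.4 CPM below and RPD3 KO at 90.5 to 101 above the reference range of 68.8 to 83.3. FPR3, a nucleolar prolyl isomerase, differed by 0.02 ± 0.06 log2.

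Genes for transcribing ribosomal RNA lay in the same direction. Of 18 genes for RNA polymerase I and its factors, 13 (72.2%) were higher and 0 lower, beside 17.8% and 20.8% of all targets. The largest subunits RPA190 and RPA135 held 240 to 359 against 33.2 to 162 CPM and 393 to 595 against 67.8 to 287 CPM. RRN3, the initiation factor of RNA polymerase I, was higher by 2.48 ± 0.09 log2 in RPD3 KO and 0.71 ± 0.09 in SWI3 S237A, each against the reference side. The difference between the mutants was 1.76 ± 0.10 (edgeR adjusted p = 2.34e-08). HMO1, a high mobility group protein of ribosomal DNA, overlapped, at 249 to 301 CPM against 281 to 341.

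RNA polymerase III had 8 higher and 2 lower of 20, with its largest subunit RPO31 at 110 to 196 against 44.8 to 73.7 CPM. Transfer RNA modification had 21 higher and 1 lower of 28. The shares were 40% higher and 10% lower for RNA polymerase III and 75% and 3.57% for modification. Over all targets they were 17.8% and 20.8%. TRM2 and PUS1, a methyltransferase and a pseudouridine synthase, were higher by 2.06 ± 0.09 and 1.46 ± 0.06 log2. TOD6, itself a repressor that binds PAC, held 32.2 to 131 CPM on the mutant side and 2.54 to 13.8 on the reference side (3.36 ± 0.25 log2).

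Of the cytosolic ribosomal proteins few separated. Of 137 tested genes, 1 (0.73%) was higher and 11 (8.03%) were lower, with a median of -0.01 log2. This direction depended on the scaling, as total counts gave 12 higher and 5 lower and TPM 20 and 5. Without wild type replicate 1 it was 20 higher and 11 lower. RPL3 held 5841 to 6815 CPM on the mutant side and 4990 to 6244 on the reference side and so overlapped. RPL22B, the minor copy of its pair, held 75.2 to 83.8 against 122 to 164 CPM. Of the translation factors, 16 of 37 (43.2%) were higher and 2 (5.41%) lower. Over all targets 17.8% were higher and 20.8% lower. The elongation factor YEF3 held 6459 to 9085 against 1861 to 4992 CPM. ANB1, the hypoxic form of eIF5A, held 13.2 to 31.6 against 60.5 to 79.4.

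**Figure D3:**
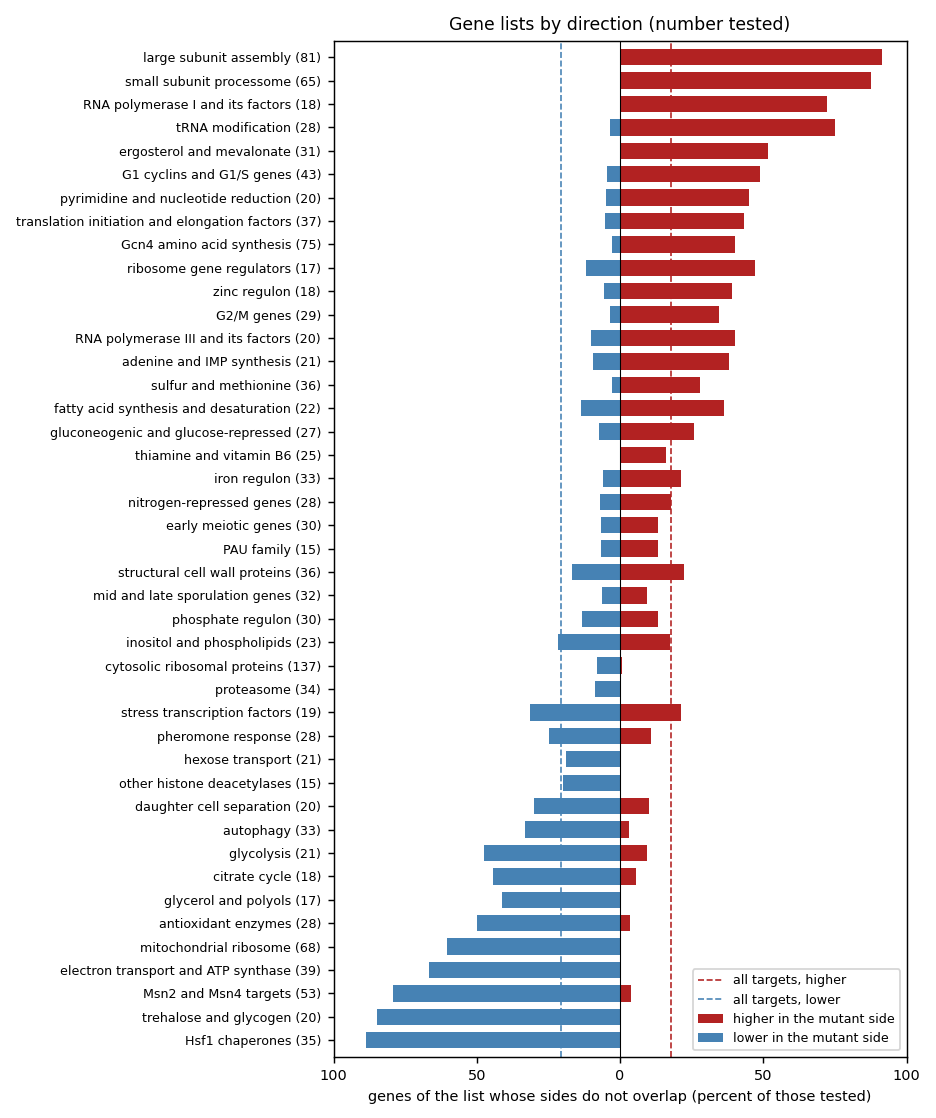
Bars give, for each list with at least 15 tested genes, the percent of its genes whose sides do not overlap, to the right where the mutant side is higher and to the left where it is lower, with the number tested in parentheses. Dashed lines mark the shares over all targets, 17.8% higher and 20.8% lower. Large subunit assembly (91.4% higher) and Hsf1 chaperones (88.6% lower) stand at the ends.

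Heat shock and general stress genes held many of the widest separations in the lower direction. Within the same limits on level and shared words, the 10 lower genes with the widest gap were HSP30, RTC3, RGI1, GPH1, TMA10, HSP26, YRO2, SPI1, SSA4 and HSP42. The limit on shared words left out HXT7, a hexose transporter with the widest gap of all lower targets (6.11), and HSP82 (4.51). HSP30, a plasma membrane protein that restrains the proton pump, held 9.62 CPM at the lowest, 12.7 at the median and 15.2 at the highest on the mutant side. The reference side held 872, 1207 and 1870 CPM. The gap was 5.79 and the pooled difference -6.70 ± 0.21 log2. The test between RPD3 KO and SWI3 S237A was not passed (-0.53 ± 0.26, edgeR adjusted p = 0.0996).

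Another 4 promoters of this group are shown for their stress elements, over the same window and orientation as above. Capitals mark STRE (AGGGG or CCCCT) and a pair of inverted heat shock units, written GAANNTTC or TTCNNGAA, whose matches may overlap.
HSP42 chrIV:806371-806670, plus strand: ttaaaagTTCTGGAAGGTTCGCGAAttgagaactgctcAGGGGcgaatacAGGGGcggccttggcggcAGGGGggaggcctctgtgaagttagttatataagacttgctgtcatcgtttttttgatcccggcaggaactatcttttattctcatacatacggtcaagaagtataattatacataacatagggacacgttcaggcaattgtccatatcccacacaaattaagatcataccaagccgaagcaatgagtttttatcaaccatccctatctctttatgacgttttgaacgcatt
HSP104 chrXII:88373-88672, plus strand: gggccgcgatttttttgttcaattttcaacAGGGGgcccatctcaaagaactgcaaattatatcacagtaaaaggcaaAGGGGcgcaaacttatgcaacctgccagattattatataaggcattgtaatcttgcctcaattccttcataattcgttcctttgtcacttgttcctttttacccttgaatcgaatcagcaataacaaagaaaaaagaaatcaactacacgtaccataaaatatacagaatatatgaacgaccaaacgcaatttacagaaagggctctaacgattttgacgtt
SSA4 chrV:364339-364638, plus strand: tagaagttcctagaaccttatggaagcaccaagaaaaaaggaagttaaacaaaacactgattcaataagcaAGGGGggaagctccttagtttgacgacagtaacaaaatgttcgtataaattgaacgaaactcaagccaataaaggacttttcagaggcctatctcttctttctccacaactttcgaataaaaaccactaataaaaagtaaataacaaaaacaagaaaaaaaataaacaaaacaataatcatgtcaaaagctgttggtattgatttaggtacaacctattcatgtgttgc
RTC3 chrVIII:280570-280869, plus strand: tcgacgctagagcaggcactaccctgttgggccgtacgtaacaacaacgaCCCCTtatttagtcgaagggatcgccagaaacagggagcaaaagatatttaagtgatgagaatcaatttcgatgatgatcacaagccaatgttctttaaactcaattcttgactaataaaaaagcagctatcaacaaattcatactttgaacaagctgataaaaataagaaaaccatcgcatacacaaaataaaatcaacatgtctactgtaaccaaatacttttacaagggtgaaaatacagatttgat

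STRE was found in 30.7% of the promoters of lower genes, 10.1% of those of higher genes and 18.8% of all. Among lower genes with a gap of at least 1 it was found in 50.8%. The heat shock pair was found in 20.6% of lower, 18.2% of higher and 19.2% of all promoters, and in 65.7% of the promoters of the Hsf1 list. HSP42 held 3 overlapping pairs and 3 stress elements, while of the marked elements the windows of HSP104, SSA4 and RTC3 held stress elements only. The RTC3 window also held 1 PAC match, which is not marked.

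Of 35 chaperone genes of the Hsf1 list, 31 (88.6%) were lower and 0 higher, beside 20.8% and 17.8% of all targets. These chaperone genes had a median of -2.30 log2. Their summed counts were 1.1% to 1.39% of all counts on the mutant side and 5.19% to 5.7% on the reference side. HSP104, the disaggregase that pulls proteins out of aggregates, held 122 CPM at the lowest, 221 at the median and 336 at the highest on the mutant side, against 5995, 6241 and 6941. RPD3 KO stood at 122 to 125 CPM and SWI3 S237A at 317 to 336, a difference of -1.42 ± 0.07 log2 (edgeR adjusted p = 5.84e-09). SSA4, the stress-induced Hsp70, held 29.9 to 64.5 against 1281 to 2017 CPM and was the other way round, with SWI3 S237A lower than RPD3 KO by 0.88 ± 0.13 log2 (edgeR adjusted p = 8.52e-05).

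The small heat shock proteins also split between the mutants. HSP26 held 18.1 to 21.9 CPM in RPD3 KO and 6.49 to 6.80 in SWI3 S237A, and HSP42 held 46.8 to 50.3 in RPD3 KO and 88.3 to 101 in SWI3 S237A. On the reference side they held 485 to 1015 and 1873 to 2683 CPM. HSP78, the mitochondrial disaggregase, was lower by 5.91 ± 0.10 log2 in RPD3 KO and by 3.89 ± 0.09 in SWI3 S237A. HSP82, the stress-induced Hsp90, held 109 to 137 against 3149 to 3961 CPM, with 15.5% of its 31-base words shared with other genes. Of the chaperones that overlapped, SSE1, an Hsp110, held 1225 to 1571 against 1459 to 2133 CPM, and CPR1, cyclophilin, 1114 to 1691 against 1514 to 1923.

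Among 53 targets of Msn2 and Msn4, 42 (79.2%) were lower and 2 (3.77%) higher, beside 20.8% and 17.8% of all tested targets. These 53 genes had a median of -2.82 log2. Their summed share was 0.427% to 0.511% of counts on the mutant side and 2.17% to 3.52% on the reference side, the lowest of these in wild type replicate 1. RTC3, a stress-induced protein, held 6.20 CPM at the lowest, 7.31 at the median and 11.0 at the highest against 343, 511 and 622. RGI1 and TMA10, both small proteins induced by stress or respiration, differed by -5.78 ± 0.13 and -5.50 ± 0.13 log2. CTT1, the cytosolic catalase, held 15.9 to 24.0 against 110 to 269 CPM. PRB1, a vacuolar protease, overlapped, at 313 to 398 against 334 to 436.

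Of 19 stress transcription factors, 4 (21.1%) were higher and 6 (31.6%) lower, beside 17.8% and 20.8% of all targets. MSN2 overlapped. HSF1 overlapped, at 85.4 to 97.8 CPM on the mutant side and 84.9 to 92.4 on the reference side. MSN4 was lower, at 22.8 to 47.3 against 80.8 to 134 CPM. USV1, a zinc finger factor, held 10.2 to 18.0 against 48.1 to 61.4, and HAC1, the factor of the unfolded protein response, 230 to 291 against 432 to 660. Of 17 regulators of ribosome genes, 8 (47.1%) were higher and 2 (11.8%) lower. Of the lower ones, TPK2, a catalytic subunit of protein kinase A, held 65.0 to 73.9 against 135 to 174 CPM.

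**Figure D4:**
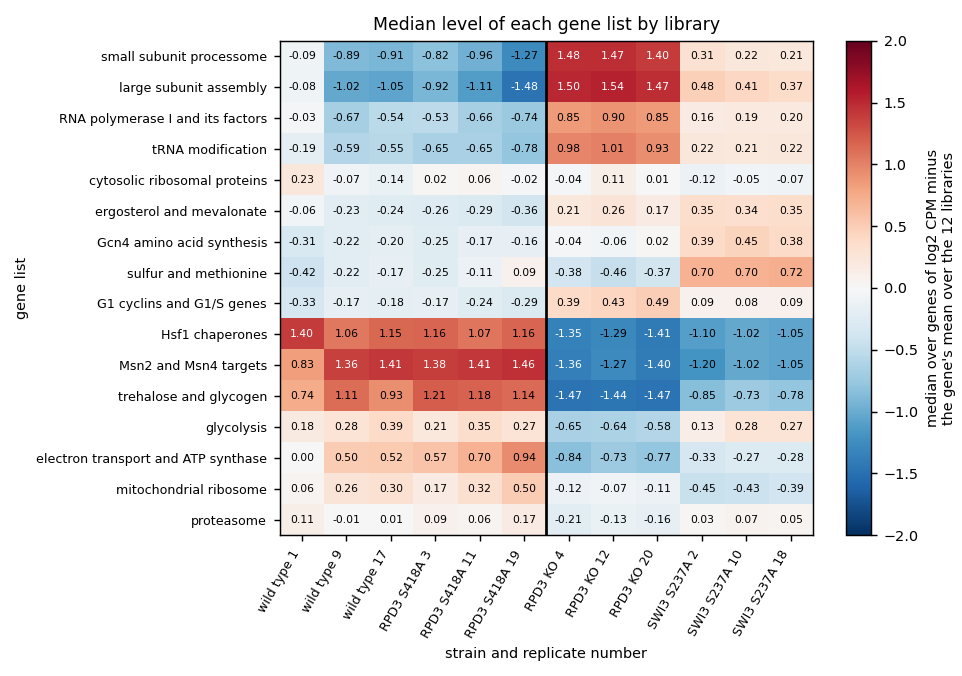
Cells give, for 16 gene lists and each library, the median over genes of log2 CPM minus the mean of that gene over the 12 libraries, with the reference side left of the black line. Ribosome assembly lists run from -1.48 to -0.08 on the left and from 0.21 to 1.54 on the right, Hsf1 chaperones from 1.06 to 1.40 and from -1.41 to -1.02. The glycolysis list is at -0.65 to -0.58 in RPD3 KO and at 0.13 to 0.28 in SWI3 S237A.

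Reserve carbohydrate genes were lower with few exceptions. Of 20 genes of trehalose and glycogen metabolism, 17 (85%) were lower and 0 higher, beside 20.8% and 17.8% of all targets. GPH1, glycogen phosphorylase, held 18.9 to 22.6 CPM against 543 to 1450, where 543 was wild type replicate 1 and the next reference library stood at 1243. PGM2, phosphoglucomutase, was lower, and its difference between RPD3 KO and SWI3 S237A did not pass the test (0.01 ± 0.20, edgeR adjusted p = 0.981). GSY1, a glycogen synthase, held 7.89 to 9.15 CPM in RPD3 KO and 43.6 to 52.0 in SWI3 S237A, while its paralog GSY2 held 45.4 to 47.6 and 60.4 to 71.1. NTH2, the minor trehalase, overlapped.

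The hexose transport list had 4 lower (19%) and 0 higher of 21, beside 20.8% lower over all targets. Of these 21 genes, 5 were lower in RPD3 KO and higher in SWI3 S237A (edgeR), as were 4.8% of all targets. HXT4, a high-affinity hexose transporter, held 31.7 to 67.2 against 564 to 1270 CPM. HXT7 and HXT6 were also lower, and their reads cannot be told apart, since 95.7% of the 31-base words of each occur in other genes. HXT1, a low-affinity transporter, overlapped through wild type replicate 1, at 190 CPM beside 34.2 to 67.6 in the other reference libraries and 146 to 271 on the mutant side. HXK1, the hexokinase that glucose represses, held 27.2 to 107 against 1407 to 4374 CPM. Of 21 glycolysis genes, 10 (47.6%) were lower and 2 (9.52%) higher, beside 20.8% and 17.8% of all targets. Of the same 21, 17 were lower in RPD3 KO than in SWI3 S237A (edgeR), beside 32.3% of all targets.

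Respiration genes were lower as well. Of 39 genes for electron transport and ATP synthase, 26 were lower and 0 higher, 34 and 0 without wild type replicate 1. Total counts gave 20 lower and TPM 18. CYC7, the minor form of cytochrome c, held 3.72 to 6.29 CPM against 76.4 to 201, and COX5B, the hypoxic oxidase subunit, 34.8 to 54.0 against 158 to 311. HAP4, the activating subunit of the respiratory HAP complex, held 17.4 to 19.9 against 76.2 to 187. In the citrate cycle 8 of 18 were lower and 1 higher, with aconitase ACO1 at 140 to 503 against 875 to 1243 CPM. Of 68 mitochondrial ribosomal proteins, 41 were lower and 0 higher, at a median of only -0.55 log2; total counts gave 21 lower. Of 34 proteasome genes 3 (8.82%) were lower and 0 higher, below the 20.8% and 17.8% of all targets. The other 31 overlapped, and the list median was -0.16 log2.

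Several metabolic lists held more higher than lower genes, and others did not. Glycerol and polyols had 0 higher and 7 (41.2%) lower of 17. Inositol and phospholipids had 4 (17.4%) higher and 5 (21.7%) lower of 23, and phosphate 4 (13.3%) and 4 (13.3%) of 30. Over all targets the shares were 17.8% higher and 20.8% lower. Of 75 genes of amino acid synthesis under Gcn4, the activator of amino acid starvation, 30 (40%) were higher and 2 (2.67%) lower. Between the mutants, 50 of the 75 were lower in RPD3 KO than in SWI3 S237A (edgeR), beside 32.3% of all targets. GCN4 overlapped, since RPD3 KO held 928 to 1065 beside a reference range of 801 to 1058, while SWI3 S237A held 1879 to 1949. Ergosterol synthesis had 16 higher and 0 lower of 31. ERG25, the methyl sterol oxidase, held 416 to 453 against 138 to 266 CPM, with RPD3 KO and SWI3 S237A differing by -0.09 ± 0.14 (edgeR adjusted p = 0.576).

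Nucleotide synthesis and G1/S genes held more higher than lower genes. Daughter cell separation had 2 (10%) higher and 6 (30%) lower of 20, beside 17.8% and 20.8% of all targets. Of 21 genes of adenine and IMP synthesis 8 were higher and 2 lower, with GUA1, GMP synthase, at 1006 to 1134 against 209 to 636 CPM. FUI1, the uridine importer, held 93.2 to 127 against 28.2 to 41.3. The G1/S list had 21 higher and 2 lower of 43. The higher ones included RNR1, the large subunit of ribonucleotide reductase, at 313 to 327 against 108 to 165, and GIN4, a bud neck kinase, at 94.8 to 121 against 36.7 to 53.9. INO2 and INO4, which act as 1 dimer on phospholipid genes, separated in opposite directions, by 1.70 ± 0.07 and -0.70 ± 0.06 log2.

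Chromatin genes separated in both directions, set here beside 17.8% higher and 20.8% lower over all targets. Of 11 histone genes 4 (36.4%) were higher and 0 lower. Of 14 subunits of the Rpd3 complexes 7.14% were higher and 14.3% lower, below both shares. UME6 was higher, at 88.5 to 137 against 43.3 to 61.3 CPM, and SDS3 and RPD3 were lower. SDS3 overlapped with total counts and in TPM. Of 12 SWI/SNF subunits, 2 (16.7%) were higher and 3 (25%) lower, near the shares over all targets. SNF2, the ATPase, held 100 to 115 against 59.3 to 83.0 CPM, and SNF5 56.1 to 65.8 against 45.7 to 48.7. Of 30 early meiotic genes, many of them repressed by Ume6 before meiosis, 4 (13.3%) separated higher and 2 (6.67%) lower. Their median difference was 1.07 log2 for RPD3 KO against wild type and 0.06 for SWI3 S237A against RPD3 S418A, beside -0.06 and -0.02 over all targets. The kinase gene SPS1, of mid sporulation, held 4.46 to 10.3 CPM against 0.948 to 1.57.

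Whether RPD3 KO and SWI3 S237A stood at the same level was tested directly, since that difference is not the one that chose the genes. Over all targets 4075 (64.4%) passed the edgeR test between these strains, 32.1% with RPD3 KO higher and 32.3% with it lower. The pooled contrast was passed by 75.1% of all targets, 34.2% higher and 40.9% lower. Among the 1124 higher targets, RPD3 KO lay further from the reference side in 566 (50.4%), SWI3 S237A in 133 (11.8%), and 425 (37.8%) did not pass. Among the 1313 lower targets the numbers were 545 (41.5%), 223 (17%) and 545 (41.5%). The median distance from the reference side was 0.96 log2 in RPD3 KO and 0.70 in SWI3 S237A for higher targets, and 0.80 and 0.65 for lower ones. The rule favours targets that both strains move, and the targets that overlapped passed the test in 67% of cases.

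In some separated genes most of the distance lay in 1 strain. LEU1, isopropylmalate isomerase of leucine synthesis, held 166, 149 and 165 CPM in RPD3 KO and 1551, 1571 and 1517 in SWI3 S237A, against 100 to 130 on the reference side. SER3, of serine synthesis, and OAC1, the mitochondrial carrier of leucine precursors, were also highest in SWI3 S237A, by 2.42 and 2.09 log2 over RPD3 KO. Conversely, GFD2 held 136, 140 and 128 CPM in RPD3 KO and 14.0, 14.1 and 14.9 in SWI3 S237A, against 4.74 to 8.45. These genes were picked for that difference, and so carry no test. SER3 overlaps another annotated gene, YNCE0017W, on the same strand, so reads from the overlap may belong to either.

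Cell surface genes were among the lower targets that differed most. ZEO1, a peripheral plasma membrane protein, held 224, 223 and 229 CPM in RPD3 KO and 12.5, 11.4 and 12.9 in SWI3 S237A, against 530 to 795. YGP1, a secreted glycoprotein, held 691 to 722 in RPD3 KO and 39.4 to 40.7 in SWI3 S237A, against 862 to 1684. Its sides overlapped in TPM. SED1, a major cell wall protein, held 1886 to 2286 and 147 to 168, against 3113 to 4608. CSS3 and DFP4 were the reverse, at 0.485 to 0.792 and 0.742 to 1.25 CPM in RPD3 KO and at 11.4 to 13.1 and 13.6 to 15.7 in SWI3 S237A, just below the reference side, and both overlapped under another scaling. TDH1 and PYK2, stress and minor forms of glycolytic enzymes, also held far less in RPD3 KO (37.3 to 38.4 and 4.06 to 4.43 CPM) than in SWI3 S237A (527 to 629 and 56.8 to 65.3), with 26.3% shared words in TDH1. At the other extreme GLG1, a glycogenin, and RNR1 were among the genes picked for the smallest difference between the mutants, -0.00 ± 0.08 and 0.00 ± 0.13 log2.

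**Figure D5:**
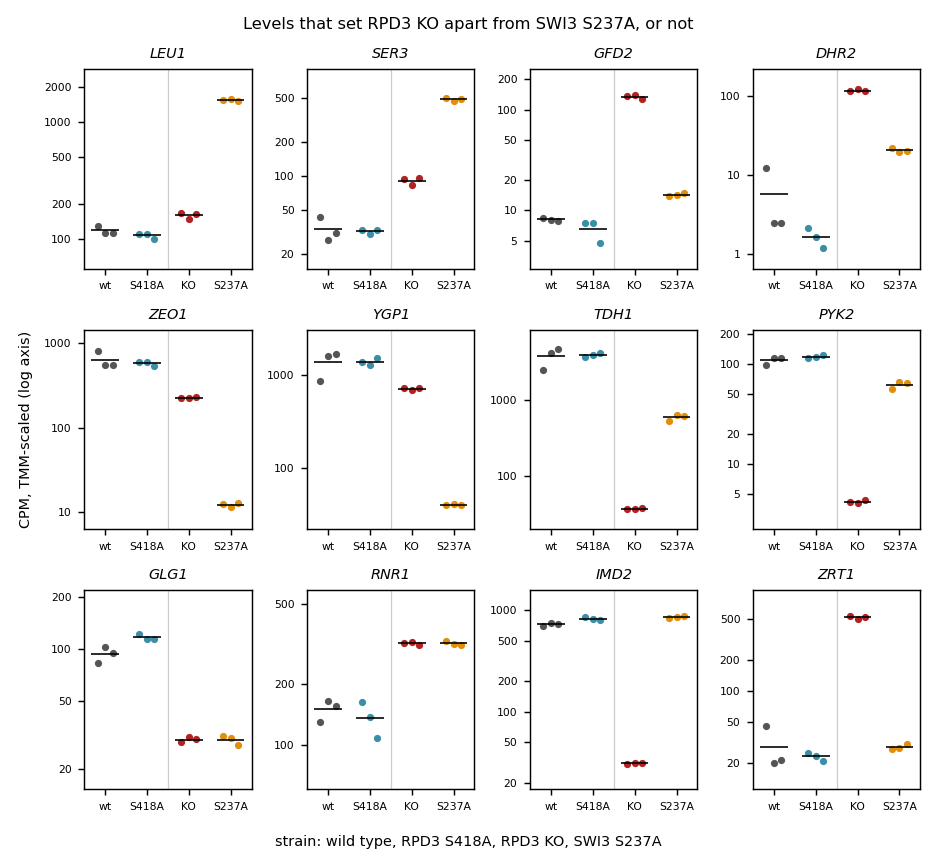
Each panel gives 1 gene by library in TMM-scaled CPM on a log axis, with strain means as lines. LEU1 and SER3 are highest in SWI3 S237A, GFD2 and DHR2 in RPD3 KO, ZEO1 and YGP1 lowest in SWI3 S237A, TDH1 and PYK2 lowest in RPD3 KO. GLG1 and RNR1 have like levels in both, and in IMD2 and ZRT1 the sides overlap, with SWI3 S237A at or near the reference side.

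Targets that overlapped included genes far from the reference side in 1 mutant only, and genes that differed in opposite directions in the mutants. Taking RPD3 KO against wild type and SWI3 S237A against RPD3 S418A, which share no library, both passed the edgeR test in 3170 targets (50.1%). Alone, the first passed in 69.9% and the second in 65.8% of targets. Of the 3170, 1264 were higher in both, 1408 lower in both, 194 higher in RPD3 KO and lower in SWI3 S237A, and 304 the reverse. Across the 6327 targets the differences had a Pearson r of 0.42 and a Spearman rho of 0.53, and across the 4870 with at least 10 CPM and at most 5% shared words 0.71 and 0.67. Genes are not independent replicates, so no p is given.

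The sulfur and methionine list held 14 of 36 genes that were lower in RPD3 KO and higher in SWI3 S237A, beside 4.8% of all targets. MET6, methionine synthase, was not among these 14 and held 444 to 485 CPM in RPD3 KO and 2535 to 2613 in SWI3 S237A, against 392 to 665. IMD2, an IMP dehydrogenase, held 30.8 to 31.1 CPM in RPD3 KO and 833 to 872 in SWI3 S237A, against 700 to 848, with 12.5% of its words shared with other genes. All 11 genes of the subtelomeric COS family, whose near-identical copies share reads, overlapped, with medians of -6.02 log2 for RPD3 KO against wild type and 0.01 for SWI3 S237A against RPD3 S418A. Within 20 kb of a chromosome end lay 0.836% of higher, 2.22% of lower and 3.68% of all targets placed on the reference. FET3, the iron-oxidising uptake enzyme, held 998 to 1041 CPM in RPD3 KO and 109 to 119 in SWI3 S237A, against 113 to 456.

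On the reference side, wild type and RPD3 S418A were also compared directly. Over all targets 128 (2.02%) passed the edgeR test, 0.822% with RPD3 S418A higher and 1.2% with it lower. Of the 1124 higher targets 14 (1.25%) passed, 13 of them lower in RPD3 S418A, and of the 1313 lower targets 23 (1.75%), 21 of them higher in RPD3 S418A. The rule also favours targets in which wild type and RPD3 S418A lie close, so these shares are not independent of it. The median of RPD3 S418A minus wild type was -0.14 log2 over the higher targets and 0.09 over the lower ones. Without wild type replicate 1 the medians were -0.08 and 0.06, with 2.85% of the higher and 4.27% of the lower targets passing beside 4.3% of all.

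Among these, CWP1, a mannoprotein of the cell wall, held 146, 164 and 169 CPM in wild type and 257, 290 and 337 in RPD3 S418A, against 19.6 to 55.2 on the mutant side. It was 0.88 ± 0.10 log2 higher in RPD3 S418A (edgeR adjusted p = 0.000612). MSN4 was higher in RPD3 S418A by 0.43 ± 0.09 (edgeR adjusted p = 0.0245), PST1, a wall protein, by 0.43 ± 0.07 (edgeR adjusted p = 0.00616) and SED1 by 0.45 ± 0.09 (edgeR adjusted p = 0.0268). TRF5 and FIG2, a mating adhesin, were lower by 0.62 ± 0.11 and 0.59 ± 0.11 (edgeR adjusted p = 0.00869 and 0.0123).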

How the data were processed

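RNA was sequenced from 12 yeast libraries, 3 for each of 4 strains, with a stranded kit that selects messenger RNA, per the labels' protocols. Per the submitters' processing notes, reads were handled with Trimmomatic 0.36 and kallisto 0.44.0 against R64. The authors deposited the estimated counts of 6713 targets per library, made by kallisto. The authors deposited TPM beside them. The sources used here do not give the strand setting. Totals ran from 18.3 M to 27 M. Counting error was set against the spread between replicates only as a mean over genes, not gene by gene. Estimated counts were rounded to whole numbers. Targets passing filterByExpr by strain (6327) were scaled by TMM and fitted with edgeR 4.0.16 (robust quasi-likelihood, 1 mean per strain, Benjamini-Hochberg over all targets, threshold 0.05) in R 4.3.3; DESeq2 1.42.0 was an alternative. Every adjusted p is edgeR's. The fit and the separation rule were tested on simulated data.

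The separated targets, the gene lists and the motifs were chosen with earlier results of these data known. Named genes followed a rule: per direction the 10 widest gaps, the 10 largest pooled differences, the 5 largest and 3 smallest differences between the mutants and those next to the limit; and per list up to 4 separated genes by gap and up to 2 overlapping ones by level. A mean of 10 CPM and at most 5% of 31-base words shared with other targets was required for the rule per direction. SPB1, RRP7, HSP104, HSP78, HXT1, PYK2, GCN4, IMD2 and SED1 were chosen after their values were seen. MSN2 was also named outside the rule. Promoters were read from the R64 RefSeq genome for 6006 targets, and 687 targets were not matched to it. Alternatives were other scalings, TPM, no filter, DESeq2, 2 side means in place of 4 strain means, and leaving out each library. Some genes are not reported here. The 3 deposited tables of the authors' comparisons were not used. Python 3.11.15, pandas 2.3.3 and numpy 2.4.6 were used for the rest.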

Additional observations from a re-analysis of the deposited data

Results flagged for a closer look

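For each named gene, the library farthest from the rest of its side was set against the whole range of the 6 libraries by Dixon's criterion. Of 236 gene and side pairs, 26 (11%) passed, and 22 of them were wild type replicate 1. The criterion passes about 1 in 20 groups by chance only for independent values of 1 population, so that rate does not apply to sides that pool 2 strains or to genes that vary together.

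In that library, ribosome assembly and growth genes stood above the other 5 reference libraries, toward the mutant side. They were DBP2 at 275.1 CPM (others 49.45 to 91.1), DHR2 at 12.42 (1.185 to 2.515), TRM11 at 31.63 (8.637 to 12.15), RRP12 at 58.0 (12.76 to 20.8), UTP20 at 43.41 (8.355 to 14.48), NOP1 at 323 (122.9 to 172.2) and GUA1 at 635.8 (208.6 to 299.8). The same held for OLE1 at 189.6 (51.88 to 80.86) and FAA4 at 267.7 (102.2 to 131.6). ZRT1, whose sides overlap, was also high, at 45.39 CPM (19.87 to 25.13).

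Carbon and respiration genes, and the catalase gene CTT1, stood below the others, again toward the mutant side. GPH1 held 542.6 CPM (others 1243 to 1450), HXK1 1407 (3427 to 4374), PGM2 980.7 (1681 to 1907), GSY2 870.1 (1249 to 1552), HXT4 563.6 (965.8 to 1270), PYK2 97.71 (113.3 to 121.6), ACO1 875.1 (1120 to 1243), CYC7 76.37 (144.1 to 200.6) and CTT1 109.8 (206.9 to 269).

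Another 3 genes of that library lay the other way, farther from the mutant side. HSP42 held 2683 CPM (others 1873 to 2111), ZEO1 795.1 (529.8 to 597.8) and MF(ALPHA)2 748.1 (396.5 to 502.5).

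In RPD3 S418A replicate 19, SPB1 was low at 19.87 CPM (30.45 to 35.05), SNF2 at 59.27 (76.08 to 83.05) and GFD2 at 4.742 (7.45 to 8.45). In RPD3 KO replicate 12, RTC3 was high at 10.98 CPM (6.202 to 7.485). Whether the library or its culture differed was not tested.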

How the results depend on the processing

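Requiring a gap of at least 1 left 44 higher and 143 lower targets. The lower count was 551 with no scaling and 739 in TPM. RPD3 S418A against wild type was called in 317 targets by DESeq2 in place of 128. Leaving out 1 library gave 1128 to 1330 higher and 1233 to 1471 lower targets, 2058 to 2258 and 2347 to 2650 pooled calls, 3657 to 4455 calls between RPD3 KO and SWI3 S237A, and 60 to 272 between RPD3 S418A and wild type. That last count was 272 without wild type replicate 1, 74 without wild type replicate 17, 68 and 60 without RPD3 S418A replicates 11 and 19, and 77 without SWI3 S237A replicate 18; the cause was not tested. With 2 side means, pooled calls were 1774 higher and 1846 lower, beside 2165 and 2589 with 4 strain means. The pooled differences of 118 named genes gave 1770 values, of which 1756 kept their side of the threshold. All kept their sign except that of FPR3, near 0 and past no threshold in either fit, which was -0.01 without RPD3 S418A replicate 19. Of 96 named separated genes, 89 separated under TMM, RLE, total counts and TPM at once. MET7, just inside the rule, overlapped unscaled, and STV1 overlapped under every scaling but TMM. SWI3, KRR1, RPL3, GCN4 and DFG5, which overlapped under TMM, were higher in TPM. Total counts for named genes, the lists under other scalings, and the lists and the RPD3 S418A calls without wild type replicate 1 were chosen after seeing the data. No paired or blocked analysis was run, because the strains share no replicate number and the labels name no batch.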
